A study of Macaca fascicularis with 56 samples.

Results

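The S100 calgranulins and their relatives are small calcium-binding proteins, and 8 of their genes were followed here in macaque blood: S100A8, S100A9, S100A12, S100P, S100A11, S100A4, S100A6 and S100A10. They were picked by name, with earlier results of these data known, and make up 8 of the 16020 genes tested. The array held 11 probe sets that carried only one of these symbols, and each gene was read by the probe set with the highest mean log2 intensity over all 56 arrays. All 8 passed the filter on dim probe sets, and all lay above the array median on every array.

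Blood came from 14 cynomolgus macaques in 3 arms, each sampled at 0, 2, 4 and 8 h. The LR12 arm held 6 animals (Y31309 to Y31314) and received LR12, a peptide known to compete for the ligands of the myeloid receptor TREM-1. The peptide control group, given LR12 in scrambled sequence, had 4 animals (Y31305 to Y31308), and the vehicle group had 4 as well (Y31301 to Y31304). The series title speaks of an endotoxin challenge ahead of the peptides. The labels give no dose, do not say whether vehicle animals were challenged, and do not place hour 0 before or after the challenge. Every animal gave 1 array per hour, so the 4 arrays of an animal are repeat samples of 1 animal and the animals are the replicates. Age and sex are not in the labels used here.

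S100A8 and S100A9 pair into calprotectin, which makes up much of the cytosolic protein of neutrophils, is also made by monocytes, and binds zinc and manganese. Released calprotectin is a ligand of TLR4, and S100A12, which mice lack, is a ligand of the receptor RAGE. The other members act mainly inside cells: S100A10 pairs with annexin A2, S100A11 binds annexin A1, S100A4 binds non-muscle myosin, S100A6 binds the calcyclin-binding protein, and S100P, first found in placenta and also made by neutrophils, binds ezrin.

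All values are deposited MAS5 intensities on the log2 scale, read with probes designed on human sequence, so levels are set against each other only within a gene. A change is a log2 difference with its limma standard error, from a fit in which the animal is a random block, and it is called where the Benjamini-Hochberg adjusted p over the 16020 genes is below 0.05. Array medians on the linear scale lay between 12.9 and 23.5. A technical split runs through the arrays: the mean of 24 added Bacillus subtilis control probe sets was at most 8.35 (log2) on 32 arrays and at least 9.0 on the other 24. In the LR12 arm 5, 5, 4 and 3 of the 6 arrays were in the low set at 0, 2, 4 and 8 h, for the peptide control 1, 3, 0 and 1 of 4, and for vehicle 2, 4, 2 and 2 of 4. One vehicle animal, Y31303, stood apart from the other vehicle animals in most of the 8 genes, and the comparisons of members against vehicle animals, and the vehicle arm's own counts, are given with and without it. Y31303 was singled out by its values in these same genes, so results without it are no independent test. In whole blood, fewer cells of a type and less RNA per cell cannot be told apart.

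S100A12, S100P, S100A8 and S100A9 were all higher at 2, 4 and 8 h than at 0 h in the LR12 arm, in 6 of 6 animals at each hour. S100A12 changed most, by 10.35-fold at 2 h. S100P was 3.64-fold higher at 2 h, S100A9 2.15-fold and S100A8 2.13-fold. This order holds for the probe sets used: the second S100A8 probe set changed by 2.39 on the log2 scale, against 1.87 for S100P. In the peptide control arm only S100A12 and S100P were called, and in the vehicle arm none of the 8 was. Each of these arms had 4 animals, and vehicle calls were rare: 0.0749%, 0.481% and 0.144% of all genes by hour. S100A12 was still higher at 2 h than at 0 h in 4 of 4 vehicle animals (log2 change 1.60). Calls made within an arm are no test between arms. Compared directly, LR12 and peptide control animals differed by the test in 0 of the 8 genes at each later hour. LR12 and vehicle animals differed in 3, 3 and 1 of them.

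S100A12, also called calgranulin C, had log2 intensities of 7.01, 6.85, 7.16, 7.13, 8.22 and 8.33 at 0 h in LR12 animals Y31309 to Y31314. At 2 h the same animals had 11.44, 10.42, 9.98, 11.06, 11.47 and 10.55. They had 11.45, 10.38, 9.93, 10.68, 11.13 and 10.71 at 4 h, and by 8 h 10.57, 10.73, 9.63, 10.32, 11.35 and 10.67. Every later value in that arm was above every 0 h value, and Y31314, highest at 0 h, changed least at 2 h. Means were 7.45 ± 0.65 (SD, n = 6), 10.82 ± 0.60, 10.71 ± 0.54 and 10.54 ± 0.56 in order of hour. The change from 0 h was 3.37 ± 0.43 at 2 h (SE, limma, adjusted p = 1.27e-08), and by 4 and 8 h it was 3.26 ± 0.43 and 3.10 ± 0.43, both called. Among the changes of all 16020 genes in the arm these stood at the 99.53, 99.66 and 99.78 percentiles.

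In the peptide control arm, S100A12 had log2 intensities of 8.24, 7.34, 8.41 and 9.50 at 0 h in animals Y31305 to Y31308, and 9.41, 9.91, 11.06 and 10.86 at 2 h. At 4 h these animals had 8.90, 9.85, 11.12 and 10.12, and by 8 h 9.84, 9.85, 11.21 and 9.98. Each animal was higher at each later hour, but the highest 0 h animal, Y31308, overlapped the later values of others at 2 and 4 h. The change was 1.94 ± 0.52 at 2 h (adjusted p = 0.0139), and the 4 h and 8 h changes were 1.62 ± 0.52 (adjusted p = 0.0291) and 1.85 ± 0.52 (adjusted p = 0.0309). Without the animal as a block the adjusted p values were 0.13, 0.152 and 0.205.

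Vehicle animals Y31301 to Y31304 had S100A12 log2 intensities of 7.28, 6.03, 9.73 and 8.67 at 0 h and 8.12, 8.38, 11.44 and 10.17 at 2 h. At 4 h the values were 8.20, 8.41, 11.21 and 8.65, and by 8 h 7.98, 7.35, 11.78 and 8.82. Y31303 was the highest vehicle animal at every hour, 0 h included, and from 2 h on it lay within or above the range of LR12 animals. The spread at 0 h was wide (7.93 ± 1.62, n = 4), and the changes of 1.60 ± 0.52, 1.19 ± 0.52 and 1.06 ± 0.52 were not called (adjusted p = 0.204, 0.283 and 0.501). Yet 4 of 4 animals were higher at 2 and 8 h than at 0 h, and 3 of 4 at 4 h. A limma fit with the animal as a fixed effect called the 2 h change (adjusted p = 0.017).

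**Figure D1:**
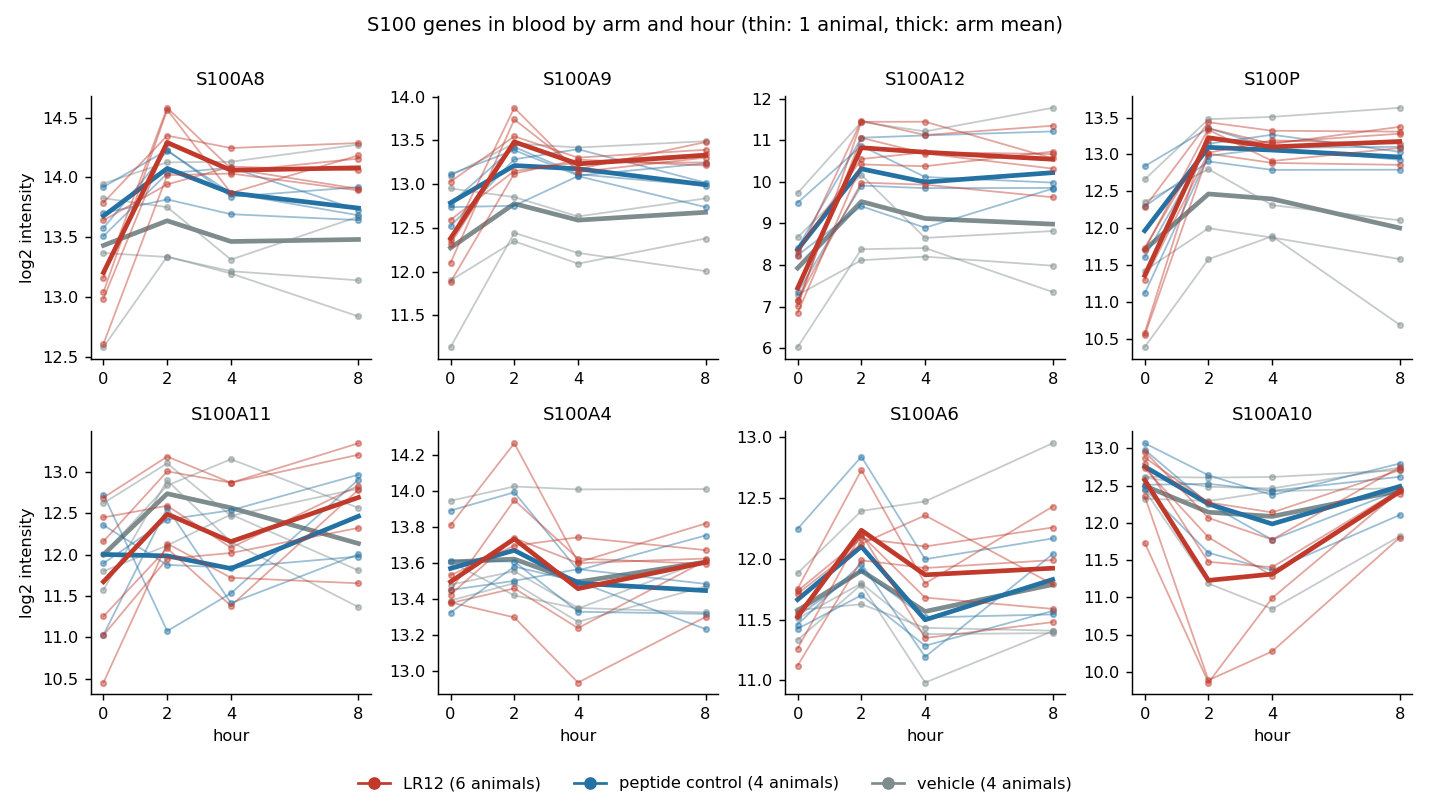
Log2 intensity of each of the 8 genes (y axis, own scale per panel) against hour of sampling (x axis, 0 to 8 h). Thin lines are single animals, thick lines are arm means (LR12 n = 6, peptide control n = 4, vehicle n = 4). S100A12, S100P, S100A8 and S100A9 climb in the LR12 arm, S100A10 dips at 2 and 4 h, and 1 vehicle animal runs above the other vehicle animals in the first 4 of these genes.

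S100P followed the same course at a smaller size. LR12 animals had S100P log2 intensities of 13.02, 13.01, 13.35, 13.33, 13.20 and 13.44 at 2 h, against 11.30, 10.55, 11.71, 10.58, 11.73 and 12.29 at 0 h. The 6 animals lay close together at 2 h and were spread over more than 1 log2 unit at 0 h, with no overlap between the hours. At 4 h they lay between 12.89 and 13.32 and at 8 h between 12.86 and 13.37, again above every 0 h value. The change was 1.87 ± 0.26 at 2 h (adjusted p = 7.61e-08), and later 1.74 ± 0.26 (4 h) and 1.81 ± 0.26 (8 h), all called. Peptide control animals had 12.91, 12.98, 13.15 and 13.36 at 2 h, against 12.30, 11.12, 11.61 and 12.84 at 0 h, also with no overlap. Their change was called at 2 h (1.13 ± 0.32, adjusted p = 0.0177) and 4 h (1.09 ± 0.32, adjusted p = 0.0157) but not at 8 h (0.998 ± 0.32, adjusted p = 0.0561). That 8 h change was called in 9 alternatives, centring (adjusted p = 0.0269), quantile normalization (0.0226) and a fixed block (0.00382) among them. Without the block the adjusted p was 0.134 at 2 h and 0.0999 at 4 h. Vehicle animals had S100P between 11.58 and 13.48 at 2 h, against 10.39 to 12.66 at 0 h. All 4 were higher, Y31303 was the highest at both hours, and the differences of 0.76, 0.69 and 0.29 at the 3 hours were not called.

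S100A8 had a high level at 0 h in several animals of both control arms, and the LR12 arm had the lowest mean of the 3 arms at that hour, though no arm differed from another by the test. LR12 animals had S100A8 log2 intensities of 14.02, 14.57, 14.29, 14.58, 13.94 and 14.35 at 2 h, against 12.61, 13.04, 12.98, 13.16, 13.64 and 13.79 at 0 h. All 6 animals were higher at 2 h with no overlap, and Y31313 and Y31314, highest at 0 h, changed least. The change was 1.09 ± 0.15 at 2 h (adjusted p = 7.59e-08), then 0.86 ± 0.15 (4 h) and 0.88 ± 0.15 (8 h), also called. Peptide control animals had 13.82, 14.22, 14.03 and 14.23 at 2 h, against 13.70, 13.58, 13.51 and 13.92 at 0 h, a change of 0.40 ± 0.19 that was not called (adjusted p = 0.211). Vehicle animals had 13.33, 13.34, 14.13 and 13.75 at 2 h, against 13.37, 12.58, 13.95 and 13.83 at 0 h, so that only Y31302 moved by more than 0.5.

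S100A9, the partner of S100A8 in calprotectin, rose in LR12 animals by 1.10 ± 0.18 at 2 h (adjusted p = 1.55e-06), and its later changes of 0.85 ± 0.18 (4 h) and 0.95 ± 0.18 (8 h) were called too. Its LR12 log2 intensities ran from 13.12 to 13.87 at 2 h (median 13.51), against 11.88 to 13.03 at 0 h (median 12.34), without overlap. Peptide control animals had 12.75, 13.42, 13.28 and 13.39 at 2 h, against 12.74, 12.78, 12.52 and 13.11 at 0 h, each higher but not called. Vehicle animals had 12.35, 12.44, 13.46 and 12.85 at 2 h, against 11.90, 11.14, 13.10 and 12.95 at 0 h, a change of 0.51 that was not called. Over the 56 arrays, S100A8 and S100A9 ran together (Pearson r = 0.961 of log2 intensity minus the array median), as did S100A12 and S100P (r = 0.936), and r between the pairs was 0.899 to 0.911. These arrays share animals, arms and hours, so the values describe the arrays and carry no test.

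The second probe set of S100A8 gave larger changes than the one used. In LR12 animals its mean log2 intensities in order of hour were 10.21, 12.60, 12.62 and 12.77, a change of 2.39 at 2 h (adjusted p = 0.000106) and of 2.41 and 2.56 later, all called. In peptide control animals the means were 11.19, 12.23, 11.68 and 12.14, and in vehicle animals Y31303 ran from 11.56 to 13.20 while the other 3 stayed between 8.01 and 10.55. The probe set used ranked between 2 and 403 by intensity among the 54675 on each array, close to the top of the scale, and the second ranked between 156 and 7891. The part of this difference in brightness in the unequal log2 changes was not tested.

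**Figure D2:**
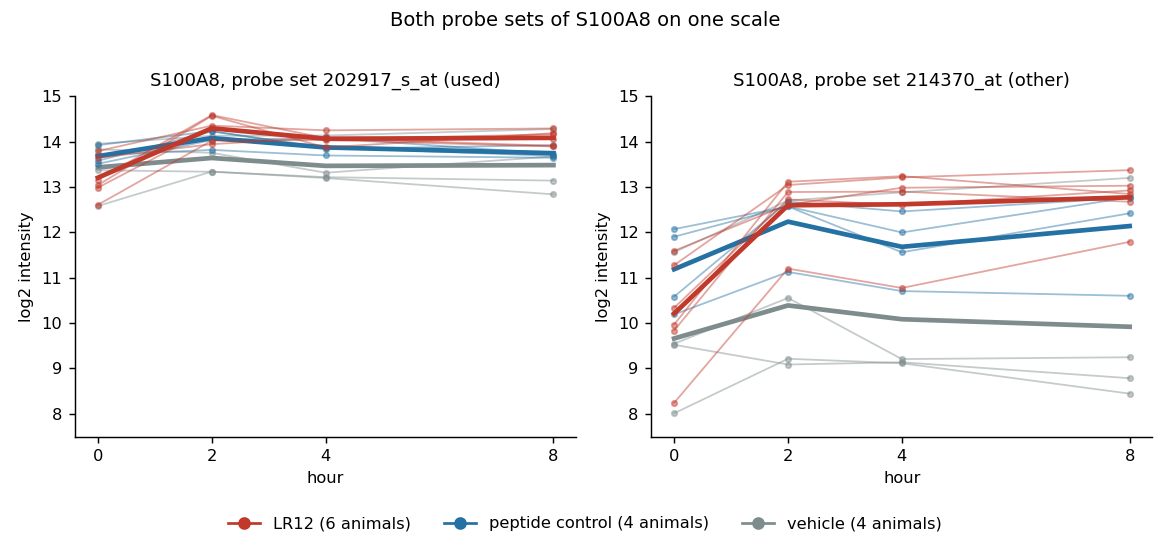
Log2 intensity (y axis, one scale in both panels) of the brighter S100A8 probe set, which was used, and of the second S100A8 probe set, against hour of sampling (x axis). Thin lines are animals and thick lines arm means. The LR12 mean of the second probe set is 12.60 at 2 h, against 10.21 at 0 h, a wider step than the 1.09 of the one used.

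S100A11 is the annexin A1 partner. Its LR12 log2 intensities were 12.13, 11.95, 12.59, 13.01, 12.08 and 13.18 at 2 h, against 10.45, 11.03, 12.45, 12.16, 11.25 and 12.69 at 0 h. All 6 animals were higher at 2 h, although the ranges overlapped, and Y31311 and Y31314, highest at 0 h, changed least. The change was called at 2 h (0.82 ± 0.28, adjusted p = 0.0161) and 8 h (1.02 ± 0.28, adjusted p = 0.00308) but not at 4 h (0.49 ± 0.28, adjusted p = 0.163). The 2 h call was lost without the block (adjusted p = 0.0605), with quantile normalization (0.0964) and without Y31309 (0.0813). Vehicle animals ran from 12.11 to 13.10 at 2 h and from 11.57 to 12.62 at 0 h, each animal higher at 2 h, with a change of 0.74 that was not called (adjusted p = 0.456). Peptide control animals had 12.57, 12.42, 11.08 and 11.88 at 2 h, against 11.03, 11.90, 12.73 and 12.36 at 0 h. There 2 animals were higher and 2 lower, and the changes of -0.02, -0.17 and 0.46 at the 3 hours were not called.

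In the LR12 arm S100A6 and S100A4 had the smallest changes at 2 h. S100A6, or calcyclin, had LR12 log2 intensities of 11.99 to 12.73 at 2 h (median 12.18), against 11.12 to 11.75 at 0 h (median 11.63), with no overlap, and a change of 0.71 ± 0.18 (adjusted p = 0.00106). Its changes at 4 h (0.35 ± 0.18, adjusted p = 0.118) and 8 h (0.40 ± 0.18, adjusted p = 0.075) were not called, but were when each array was centred on its median (0.61 and 0.68, adjusted p = 0.0141 and 0.00847). A second S100A6 probe set lay above the array median on 13 of 56 arrays only and is too dim for its changes to be read. S100A4 ran between 12.94 and 14.27 over all LR12 arrays and its changes of 0.24, -0.04 and 0.11 were not called, the last becoming 0.39 with centring (adjusted p = 0.0128). In the control arms neither gene was called at any hour.

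S100A10 went the other way. In LR12 animals its log2 intensities were 12.88, 12.96, 12.73, 12.79, 12.36 and 11.73 at 0 h, and 12.28, 12.07, 11.81, 11.48, 9.89 and 9.86 at 2 h. At 4 h they were 12.14, 11.78, 11.29, 11.40, 10.27 and 10.99, and by 8 h 12.71, 12.75, 12.39, 12.44, 11.80 and 12.43. All 6 animals were lower at 2 and 4 h, Y31313 and Y31314 by the most at 2 h, and at 8 h the values lay again within the 0 h range. S100A10 fell by 1.35 ± 0.26 on the log2 scale at 2 h (adjusted p = 2.52e-05) and fell by 1.26 ± 0.26 at 4 h (adjusted p = 5.61e-05). At 8 h the difference of -0.15 ± 0.26 was not called (adjusted p = 0.68). From 4 to 8 h S100A10 rose by 1.11 ± 0.26 (adjusted p = 0.00212), higher in 6 of 6 animals. In that step 6.12% of all genes were called higher. It was the one call among 48 tests of the members between consecutive later hours. From 2 to 4 h 18.2% of all genes were called in the LR12 arm, 12.4% in the peptide control arm and 0.162% in the vehicle arm, and from 4 to 8 h 0.911% in the peptide control arm and 0% in the vehicle arm.

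S100A10 was also lower in some control animals. Peptide control animals Y31305 to Y31308 had log2 intensities of 12.43, 11.77, 11.36 and 12.37 at 4 h, against 12.51, 12.98, 12.46 and 13.07 at 0 h, all 4 lower and without overlap, though the change of -0.77 ± 0.31 was not called (adjusted p = 0.0839). It was called with the animal as a fixed effect (adjusted p = 0.0174) and without Y31305 (0.041). Among vehicle animals, Y31303 had 12.44, 11.19, 10.84 and 11.82 in order of hour, while the other 3 stayed between 12.29 and 12.74 throughout. Over all 56 arrays S100A10 ran against S100A12 (r = -0.497), S100P (-0.467), S100A8 (-0.46) and S100A9 (-0.441). A second S100A10 probe set, above the array median on 7 arrays only, is likewise too dim to be read.

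ANXA2, which codes for the annexin that S100A10 pairs with, was singled out after its values were seen. In LR12 animals its log2 intensities were 11.98, 10.15, 9.68, 10.39, 11.28 and 11.45 at 2 h, against 12.91, 12.60, 12.44, 12.57, 12.81 and 12.55 at 0 h. Each animal was lower at 2 h, but the animals that were lowest for ANXA2, Y31310 to Y31312, were not those lowest for S100A10. ANXA2 fell by 1.83 ± 0.24 at 2 h (adjusted p = 2.78e-08) and fell by 0.75 at 4 h (adjusted p = 0.00955). Its 8 h difference of 0.15 was not called (adjusted p = 0.663). At 2 h it was lower in LR12 than in peptide control animals (-1.48, adjusted p = 0.0043). Vehicle animal Y31303 had 12.09, 10.54, 10.70 and 12.49 at 0, 2, 4 and 8 h, whereas the other vehicle animals lay between 12.45 and 12.89 at 2 h.

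**Figure D3:**
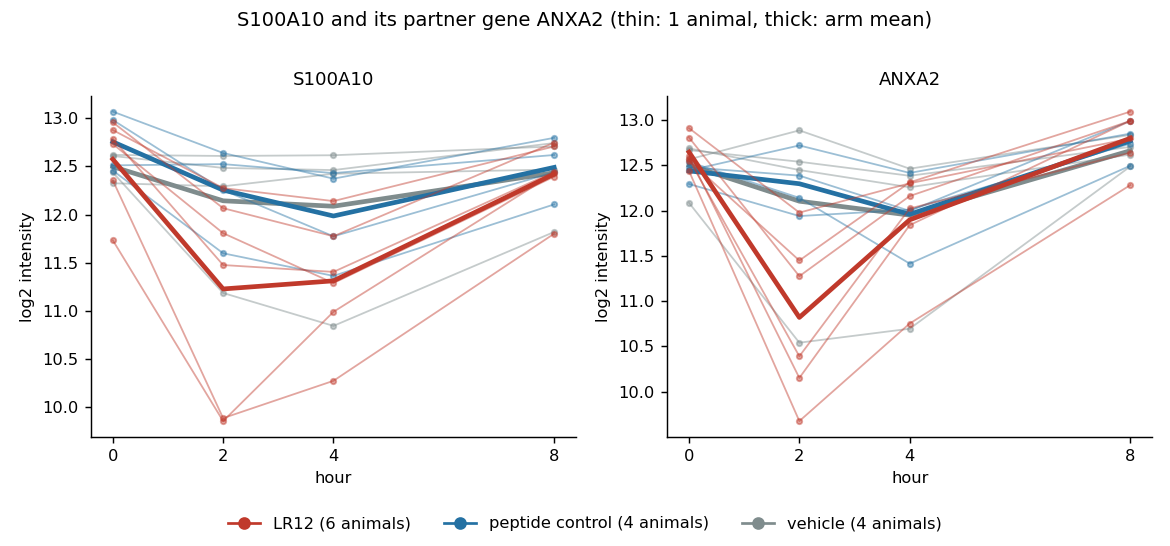
Log2 intensity (y axis) of S100A10 and of ANXA2, the gene of its annexin partner, against hour of sampling (x axis), with thin lines for animals and thick lines for arm means. The LR12 mean of both genes is lowest at 2 to 4 h and back near its 0 h level at 8 h, and 1 vehicle animal, Y31303, dips with the LR12 animals.

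Counted together, 6 of the 8 genes rose and 1 fell at 2 h in the LR12 arm, where 12.1% of all genes were called higher and 25.8% lower. At 4 h 4 rose and 1 fell (12.8% and 29.8% of all genes). By 8 h 5 rose and 0 fell (10.9% and 25.5%). The members' median change was 0.95, 0.67 and 0.91 at the 3 hours, while the median over all genes was -0.18, -0.29 and -0.27. Values lay wholly above those of 0 h for 5 members at 2 h (5.61% of all genes), and for 4 members each at 4 h (6.03%) and 8 h (4.53%). On the low-control arrays alone the LR12 arm had 19 calls out of 24, against 17 on all arrays. That fit lacks the 0 h array of Y31310 and the 8 h arrays of Y31309, Y31311 and Y31312. Its hours thus hold partly different animals, and its count is not a like-for-like check.

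The scrambled peptide's arm had 2, 2 and 1 of the 8 genes higher at 2, 4 and 8 h, with 4.37%, 4.82% and 2.38% of all genes called higher. All 5 of these calls, for S100A12 and S100P, were lost without the block, without Y31306 and without Y31307. The values lay wholly above 0 h for S100P at 2 h (3.99% of all genes) and for S100A12 at 8 h (3.28%), and wholly below for S100A10 at 4 h (9.23%). Here the control set of the arrays moved with the hour, with 1 of 4 arrays in the high set at 2 h and 3 of 4 at 0 h. With the control level as a covariate the arm had 6 calls.

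In the vehicle arm limma called 0 of the 8 genes at 2, 4 and 8 h, where 0.0749%, 0.481% and 0.144% of all genes were called. At an unadjusted p below 0.05 there were 4, 2 and 1 members. Without Y31303 0 were called as well, with S100A12 at 1.56, 1.10 and 0.73 and S100P at 0.74, 0.63 and 0.07. The 2 vehicle animals whose 4 arrays all lay in the low control set, Y31301 and Y31302, supplied every 0 h array of a fit on low-control arrays alone. In that fit S100A9 (1.15), S100A12 (2.50) and S100P (1.36) were called at 2 h. Its 2 h arrays came from all 4 vehicle animals, so Y31303 and Y31304 had no 0 h array in it. Those 2 animals had the highest S100A12 of the arm at 2 h (11.44 and 10.17). In Y31301 and Y31302 themselves S100A12 changed by 0.84 and 2.35 at 2 h.

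**Figure D4:**
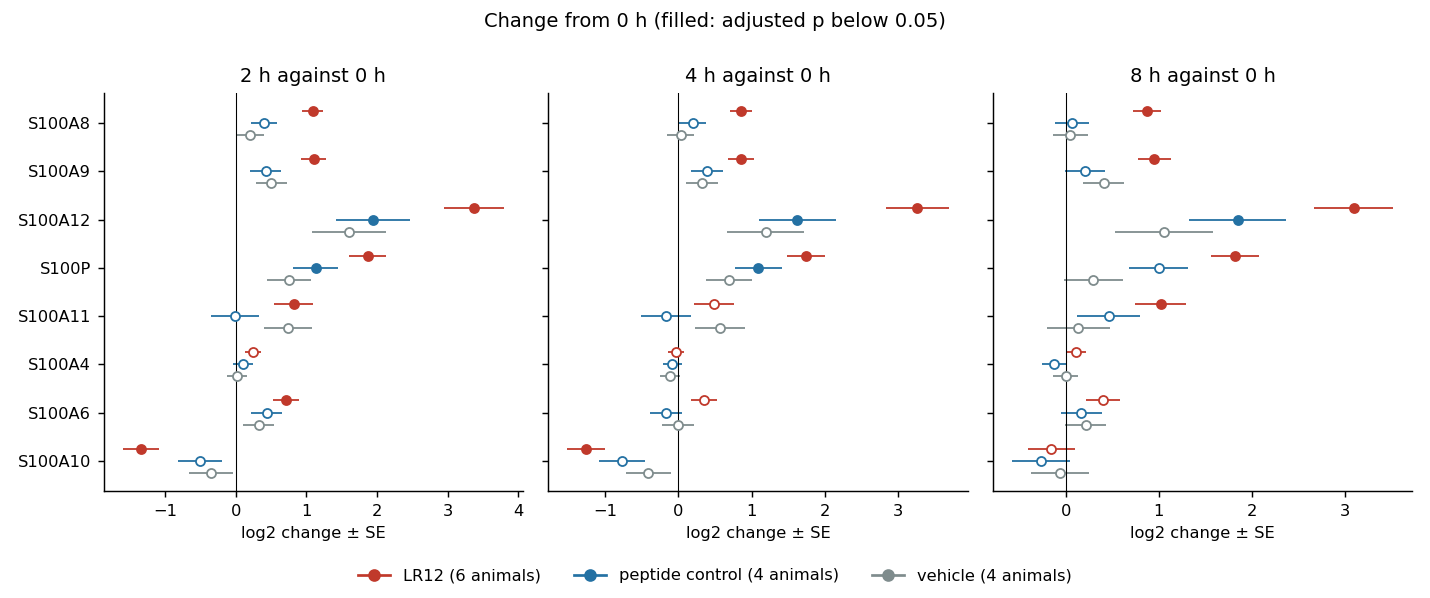
Log2 change from 0 h (x axis) for each of the 8 genes (down the page), with a panel for each of 2, 4 and 8 h and the arms in colour. Points are limma estimates, bars are ± 1 SE, and filled points have an adjusted p below 0.05. The LR12 arm has 17 filled points of 24, the peptide control arm 5 and the vehicle arm 0. The arms differ in size (n = 6, 4 and 4), and these counts are no test between arms.

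Against vehicle at the same hour, LR12 animals had higher S100A8 and S100A9 at 2 and 4 h, higher S100A12 at 4 h, higher S100P at 8 h, and lower S100A10 at 2 h. At 0 h none of the 8 was called (0.0312% of all genes). At 2 h 2 members were called higher (5.10% of all genes) and 1 lower (12.7%). The counts of higher members were 3 at 4 h (4.94%) and 1 at 8 h (1.55%). The ranges of the arms overlapped for every member at every hour. Levels of S100A8 at 2 h averaged 14.29 ± 0.27 (SD, n = 6) in LR12 animals and 13.64 ± 0.38 (SD, n = 4) in vehicle animals, a difference of 0.65 ± 0.19 (adjusted p = 0.0126). For S100A9 the difference was 0.71 ± 0.23 at 2 h (adjusted p = 0.0228) and 0.64 at 4 h (adjusted p = 0.047), and for S100A10 -0.92 ± 0.32 at 2 h (adjusted p = 0.0409). S100A12 differed by 1.59 ± 0.54 at 4 h (adjusted p = 0.0398) and S100P by 1.17 ± 0.33 at 8 h (adjusted p = 0.0291).

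Of these 7 calls, S100A8 at 2 h was the one kept without the block (adjusted p = 0.0279), and the other 6 then had adjusted p values of 0.0508 to 0.0973. The count also turned on single animals: 0 without Y31301, 1 without Y31302 or Y31312, 2 without Y31304, 3 without Y31313 or Y31314, 4 without Y31310 and 15 without Y31303. Leaving out Y31303 gave larger differences, at 2 h 1.93 for S100A12, 1.10 for S100P, 0.94 for S100A9, 0.82 for S100A8 and -1.23 for S100A10, all called. At 8 h they were 2.49 for S100A12 and 1.71 for S100P. Y31303 was the highest vehicle animal for S100A12, S100P, S100A9 and S100A8 at these hours, and the lowest for S100A10 at 2 h. The differences without it therefore had to be larger, and these calls are no independent test. The shares of all genes given here come from the fit with all animals. Blood cell markers differed between the same animals. In LR12 against vehicle animals 3, 9 and 3 of 10 T cell markers and 6, 2 and 2 of 7 B cell markers were lower at 2, 4 and 8 h. Lower erythroid markers were 3, 4 and 4 of 6, but 1 was lower at 0 h already (list median -0.80). Of 13 neutrophil granule genes 6, 5 and 3 were higher, and of 14 neutrophil markers 1, 1 and 1, with 1 lower at 4 h. Of 10 monocyte markers 2, 2 and 0 were higher and 4, 2 and 0 lower. Among all genes 5.10%, 4.94% and 1.55% were called higher and 12.7%, 9.01% and 3.10% lower. The part of these markers in the S100 differences was not tested.

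Between LR12 and the scrambled peptide none of the 8 genes was called by limma at 0, 2, 4 or 8 h, where 0%, 4.53%, 1.85% and 0.0624% of all genes were. At an unadjusted p below 0.05 there were 1, 1, 1 and 0 members. At 2 h S100A8 differed by 0.22 (95% interval -0.17 to 0.60), S100A9 by 0.27 (-0.18 to 0.72), S100A12 by 0.51 (-0.58 to 1.60) and S100P by 0.13 (-0.53 to 0.79). Each of these intervals holds 0, and the one for S100A12 is the widest of the 4. The nearest to a call was S100A10 at 2 h, -1.03 ± 0.32 (adjusted p = 0.0537), which was called without Y31303 (adjusted p = 0.0249), Y31307 (0.0489), Y31309 (0.00978) or Y31310 (0.0483). At 0 h S100A8 in LR12 against peptide control animals was at -0.47, which was not called (unadjusted p = 0.017, adjusted p = 0.94).

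**Figure D5:**
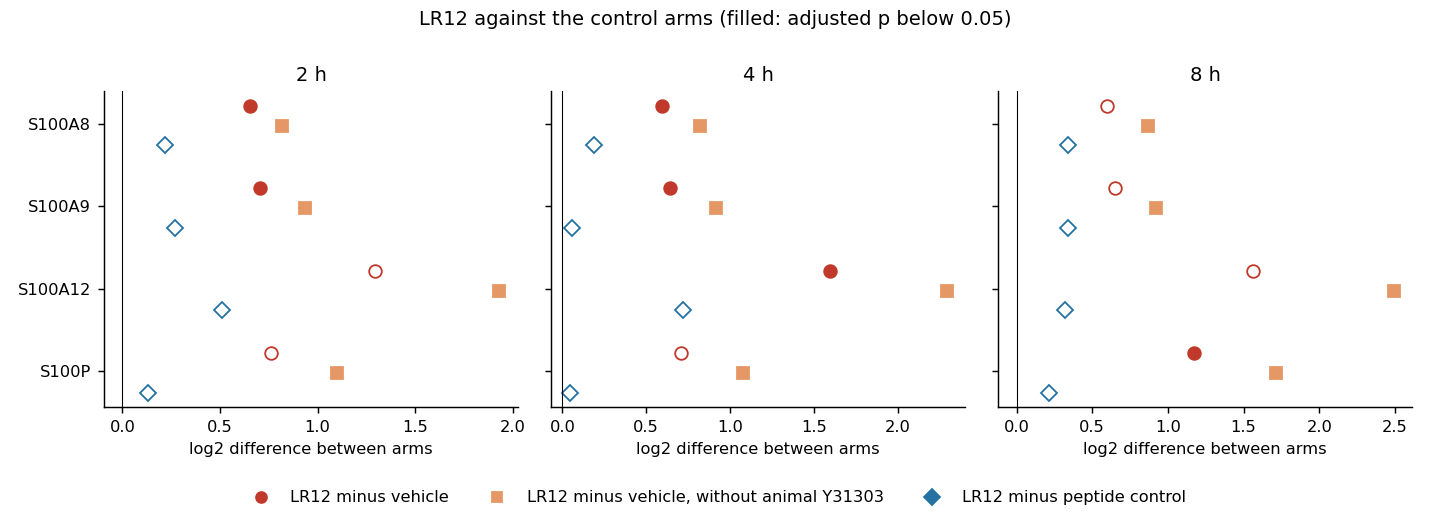
Log2 difference between arms (x axis, limma estimates without error bars) for S100A8, S100A9, S100A12 and S100P (down the page), with a panel for each of 2, 4 and 8 h: LR12 minus vehicle, the same without vehicle animal Y31303, and LR12 minus peptide control. Filled points have an adjusted p below 0.05. Y31303 is the highest vehicle animal for these genes at 2, 4 and 8 h, so the differences from vehicle without it are larger by construction. No point of LR12 minus peptide control is filled.

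Peptide control and vehicle animals did not differ by the test in any of the 8 genes at 0, 2, 4 or 8 h (0%, 0%, 0.0250% and 0.0250% of all genes called). The differences at 8 h were 1.24 for S100A12 and 0.96 for S100P. Without Y31303 limma called 6, all higher in peptide control animals: S100A8 (0.63), S100A9 (0.86), S100A12 (1.57) and S100P (1.03) at 4 h, and S100A12 (2.17) and S100P (1.50) at 8 h. Y31303 was the highest vehicle animal for these genes at both hours, so leaving it out had to raise these differences. These calls are thus no independent test, and the shares of all genes above come from the fit with all animals.

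The changes from 0 h were also compared between arms, and each such difference takes in the gap between the arms at 0 h. At that hour LR12 animals had the lowest mean of the 3 arms for S100A8, S100A12 and S100P, though no arm differed by the test. LR12 against peptide control means at 0 h were 13.20 against 13.68 for S100A8 and 7.45 against 8.37 for S100A12. At 2 h they were 14.29 against 14.08 and 10.82 against 10.31. The change of S100A8 was larger in LR12 than in vehicle animals by 0.88 ± 0.24 at 2 h (adjusted p = 0.0133) and by 0.82 ± 0.24 at 4 h (adjusted p = 0.0295), and that of S100P by 1.52 ± 0.41 at 8 h (adjusted p = 0.0417). Without the block these had adjusted p values of 0.0916, 0.159 and 0.242. Among all genes 2.81%, 2.27% and 0.662% had a larger change in LR12 animals at 2, 4 and 8 h. For S100A12 the difference in change was 1.77, 2.07 and 2.04, none called (adjusted p = 0.08, 0.05003 and 0.0874), although a fit with the animal as a fixed effect called all 3 (adjusted p = 0.00331, 0.00151 and 0.00376). Without Y31303 the differences were 1.81, 2.17 and 2.37 for S100A12, 0.87, 0.87 and 0.92 for S100A8 and 1.13, 1.11 and 1.75 for S100P, all called. The count of 3 was 0 without Y31301 or Y31304, 1 without Y31309, Y31311 or Y31312, 5 without Y31305 or Y31314, 6 without Y31302 and 11 without Y31303. Against the peptide control, limma called 0 of the 8 changes at each hour (1.17%, 0.00624% and 0% of all genes), with 0.69, 0.66 and 0.81 for S100A8 and 1.43, 1.64 and 1.25 for S100A12. At an unadjusted p below 0.05 there were 4, 2 and 2 members, S100A8 at each hour, and a fit with the animal as a fixed effect called S100A8 and S100A12 at 2 h. The changes of peptide control and vehicle animals differed for none of the 8 (0% of all genes at each hour).

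Leaving out the 8 members themselves, the genes whose log2 intensity, minus the array median, ran most like each member over the 56 arrays were partly shared between members. SERPINB1, an inhibitor of neutrophil serine proteases, was among the 3 nearest to S100A8 (r = 0.931), S100A9 (0.919), S100A12 (0.93) and S100P (0.906). Outside the members, TXN, the gene of thioredoxin, was nearest to S100A8 (0.952) and S100A9 (0.95), IL18RAP, a subunit of the interleukin-18 receptor, to S100A12 (0.936) and S100P (0.911). LCN2, a neutrophil granule protein that binds siderophores, was also near S100P (0.906). S100A6 ran most like CAPG (0.812), which caps actin filaments, S100A4 most like S100A3 (0.759), S100A11 most like FCGR2B (0.698), and S100A10 most like CD99 (0.837). The arrays share animals and hours, so these too are descriptions.

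Of S100 binding partners and receptors 14 were tested. In LR12 animals 5, 6 and 7 of them rose at the 3 later hours, 3, 3 and 2 fell, and the median change was 0.25, 0.49 and 0.44. Of all genes 12.1%, 12.8% and 10.9% were called higher in that arm and 25.8%, 29.8% and 25.5% lower. The falls in this list thus lie near the background, and the same shares apply to the lists below. TLR4, the receptor of calprotectin, rose by 0.97, 0.91 and 0.60. LY96, the TLR4 partner MD-2, was at -0.96 at 2 h, not called, and rose by 2.64 at 4 h and 2.70 at 8 h. The scavenger receptor CD36 fell by 1.99 at 2 h and rose by 3.13 at 8 h, and ANXA1 rose by 1.22 at 4 h and 1.76 at 8 h. Among peptide control animals 2, 0 and 1 of the 14 rose and 0, 1 and 0 fell, and in vehicle animals none was called. In the peptide control arm 4.37%, 4.82% and 2.38% of all genes were called higher and 3.26%, 10.5% and 1.92% lower.

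Of 9 transcription factors listed for S100A8 and S100A9, 7, 5 and 4 rose in LR12 animals at the 3 hours and 1, 0 and 1 fell, with medians of 0.60, 0.53 and 0.45. CEBPE rose by 1.50 at 2 h and 1.03 at 8 h, and CEBPD by 1.25 at 2 h and 1.20 at 4 h. CEBPA fell by 2.99 at 2 h, with -0.40 and 0.64 later that were not called. ATF3 rose by 3.28 at 2 h and 1.61 at 4 h, and fell by 1.19 at 8 h. With the scrambled peptide 2, 4 and 0 rose and 1, 0 and 1 fell, and in vehicle animals none was called.

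Of 14 neutrophil markers tested, 7, 8 and 8 rose in LR12 animals at the 3 hours and 0, 2 and 1 fell, with medians of 0.71, 0.58 and 0.67. Their summed linear intensity ran from 30407 to 43422 at 2 h and from 16645 to 28563 at 0 h in LR12 animals, without overlap. In peptide control animals it ran from 29136 to 38250 at 2 h and from 18818 to 29941 at 0 h, and in vehicle animals from 25469 to 28869 at 2 h and from 18768 to 27593 at 0 h. At 2 h in LR12 animals 7 of the 14 markers rose, 0 fell and 7 were not called. The neutrophil surface genes FCGR3B (-0.73) and CXCR2 (0.32), picked after their values were seen, were among those not called and do not stand for the list. Among peptide control animals 1, 2 and 2 markers rose and 0, 1 and 1 fell at the 3 hours. In vehicle animals none was called, with list medians of 0.74, 0.57 and 0.52. The part of neutrophil numbers in the S100 changes was not tested.

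Of 13 neutrophil granule genes, 9, 8 and 8 rose and 0, 1 and 0 fell in LR12 animals (median 1.47, 1.06 and 0.60). At 2 h CRISP3 rose by 6.50, OLFM4 by 6.49, LTF by 5.55 and MMP8 by 4.22. Peptide control animals had 6, 5 and 3 higher and none lower, and in vehicle animals none was called. Of 10 monocyte markers, 4, 7 and 5 rose and 4, 3 and 1 fell in LR12 animals (25.8%, 29.8% and 25.5% of all genes fell). The same markers had 2, 0 and 1 rises and 3, 2 and 0 falls in peptide control animals, and 1 rise, of CLEC4E by 1.14 at 2 h (adjusted p = 0.0372), in vehicle animals.

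Lymphocyte markers moved the other way. In LR12 animals 9, 10 and 10 of 10 T cell markers fell at 2, 4 and 8 h, with medians of -1.29, -2.33 and -1.84, and their summed intensity had a median of 4742 at 2 h against 11921 at 0 h. Of 7 B cell markers 6, 4 and 5 fell, and of 8 natural killer and cytotoxic markers 5, 6 and 4 fell and 0, 1 and 0 rose. Among peptide control animals 0, 8 and 0 T cell markers, 1, 1 and 1 B cell markers and 0, 3 and 1 killer cell markers fell, and 1 killer cell marker rose at 4 h. Among 7 platelet markers 0, 5 and 4 fell and 1, 0 and 0 rose in LR12 animals, and 1 rose at 8 h in peptide control animals. Among 6 erythroid markers 0, 1 and 5 fell in LR12 animals and 2 rose at 2 h in peptide control animals. None of these lymphocyte, platelet and erythroid markers was called in vehicle animals, and no marker was at 0. The part of this blood makeup in the S100 changes was not tested.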

How the data were processed

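Whole blood was drawn into PAXgene tubes, and labelled cDNA was made from 50 ng of RNA with a NuGEN kit, per the labels' protocols. The deposited values are linear MAS5 intensities, as the submitters' processing notes name the method; version, settings and scaling target are not given in the sources used here. On each array the mean without the top and bottom 2% was 150.03 to 150.04. The log2 of the deposited intensity was used with no added normalization. Of 54675 probe sets, 41097 had 1 gene symbol, 1801 several and 11777 none in the platform table, and 1 probe set per gene was used, the brightest on average. Probe sets above the array median on at least 4 of 56 arrays were kept, leaving 16020 genes.

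One linear model over arm and hour was fitted to all 56 arrays (limma 3.58.1, trend and robust, R 4.3.3) with the animal as a random block (correlation 0.221, statmod 1.5.0). Tests were two-sided, 36 comparisons were made, and p values were adjusted within each over all genes. Arrays of an animal are paired by the animal label; after removing group means they correlated at 0.18 on average (-0.009 to 0.513), other arrays at -0.011. Comparisons against one control arm share its animals. The script was tested on simulated data.

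The 8 genes, the 11 lists and the tests were chosen with earlier results of these data known. Named genes are the 8 members, up to 4 examples a list (the largest called changes) and the 3 genes outside the members most alike each member, of which the text gives some; TLR4, ANXA2's values by animal, S100Z, CLEC4E, FCGR3B and CXCR2 were added after their values were seen. Alternatives were array centring, quantile normalization, no filter, an offset of 16, no block, a fixed block, the control level as a covariate, plain limma, the other probe set, leaving out each animal and, added after seeing the data, each control set alone. A value that was never called counts as unchanged when its sign flips. No sequences of these genes were used here.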

Additional observations from a re-analysis of the deposited data

Results flagged for a closer look

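Dixon's test at 95% picked out 1 animal in 11 of 96 groups of a member, arm and hour, where chance picks out about 1 in 20. Vehicle animal Y31303 accounts for 5 of them. At 4 h its log2 intensity was 14.13 for S100A8 (the other vehicle animals 13.20 to 13.31), 11.21 for S100A12 (8.20 to 8.65), 14.01 for S100A4 (13.28 to 13.35) and 10.84 for S100A10 (12.42 to 12.62), and at 8 h it was 12.95 for S100A6 (11.39 to 11.41). Peptide control animal Y31307 had 13.40 for S100A9 at 4 h (the others 13.09 to 13.11) and 11.21 for S100A12 at 8 h (9.84 to 9.98). Peptide control animal Y31308 had 12.25 for S100A6 at 0 h (11.42 to 11.53). LR12 animal Y31310 had 13.81 for S100A4 at 0 h (13.38 to 13.53) and 12.73 for S100A6 at 2 h (11.99 to 12.21), and LR12 animal Y31313 had 11.80 for S100A10 at 8 h (12.39 to 12.75).

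In 3 cases the change from 0 h differed between LR12 and vehicle animals by the interaction test of limma: S100A8 at 2 h (0.88, adjusted p = 0.0133), S100A8 at 4 h (0.82, adjusted p = 0.0295) and S100P at 8 h (1.52, adjusted p = 0.0417).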

How the results depend on the processing

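Of 33 called results on the 8 genes, 29 kept their call with arrays centred on their median and 31 with quantile normalization. Kept calls were 27 without the filter, 33 with the offset, 32 with the control level as a covariate, 28 with plain limma and 18 with no block. Only S100A8, S100A6 and S100A10 have another probe set, dim for S100A6 and S100A10. With it 27 kept their call, 5 lost it and 1 reversed. Calls on the other genes kept their probe set there and could hardly change. The LR12 arm's 17 calls of 24 became 16 to 21, gained calls included, in every setting that used all its arrays, and 16 to 18 without 1 animal. The peptide control arm's 5 calls became 3 without the filter and 0 with no block for the pairing (0 to 7 without 1 animal). The vehicle arm's 0 became 1 with a fixed block and 3 on low-control arrays. LR12 against vehicle had 7 calls, and 4 with centring, without the filter and with plain limma, 1 with no block, and 0 to 15 without 1 animal. LR12 against the peptide control ran from 0 to 1 and peptide control against vehicle from 0 to 6 without 1 animal. The 3 calls on the change in LR12 minus vehicle became 5 with the offset, 0 with no block, 10 with a fixed block, 1 with the other probe set, 1 with plain limma and 0 on low-control arrays, and ran from 0 to 11 without 1 animal. LR12 minus peptide control had 0 and, with a fixed block, 2. The 1 call between later hours became 3 with a fixed block and 0 with the other probe set, ranged from 1 to 3 without 1 animal, and reversed for S100A10 with its dim probe set (-0.50). On high-control arrays alone 0 of the 8 called results that could be fitted kept their call; that fit holds few arrays. The causes were not tested.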

Other observations

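Of 10 other S100 genes that were tested, 1 rose and 2 fell at 2 h in LR12 animals, 1 rose and 2 fell at 4 h, and 2 rose and 1 fell at 8 h, with median changes of 0.43, -0.42 and -0.07. Of all genes 12.1%, 12.8% and 10.9% were called higher and 25.8%, 29.8% and 25.5% lower, so these counts lie near the background. S100A5 rose by 1.16, 1.21 and 1.88 at the 3 hours and S100A2 rose by 1.64 at 8 h. S100A1 fell by 0.84 at 2 h, and S100A14 fell by 1.31 at 4 h. The list was dim, with a mean log2 intensity over the 10 genes of 5.18 to 5.79 at 0 h in LR12 animals. The named changes carry that limit. In peptide control animals 1 of the 10, S100Z, fell at 4 h, and in vehicle animals none was called.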
